A study of Mus musculus with 8 samples.

Results

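The mRNAs described here are those of p53 (Trp53), of its 2 regulators Mdm2 and Mdm4, and of 6 genes that p53 is known to switch on in cell cycle arrest and stress, namely Cdkn1a, Ccng1, Trp53inp1, Phlda3, Sesn2 and Gadd45a. The 9 genes were picked by Ensembl gene ID for their known part in this pathway, out of 54838 IDs in the count files. RNA immunoprecipitation sequencing (RIP-seq), in which an antibody pulls a protein and the RNA attached to it out of a lysate, was applied to dissociated cortical cells of C57BL/6 mice at embryonic day 12.5. A rabbit antibody to Exosc10 was used for 4 libraries, and normal rabbit IgG, in a mock pull-down that gives the background, for the other 4. Both groups share strain, age and region, the labels name no mutation or treatment, and whether the 4 libraries of each kind are separate litters or cultures is not stated in the labels. Input RNA was not analysed here, and each value sets one pull-down against the other.

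Exosc10 is a ribonuclease of the nuclear RNA exosome, which trims and degrades many kinds of RNA from the end of the transcript. The question addressed was which mRNAs of the p53 pathway were recovered with it beyond the mock pull-down. The p53 protein is a transcription factor that is kept low by Mdm2, a ubiquitin ligase that marks it for destruction, and by Mdm4, a related protein that binds p53 and blocks its activity. Mdm2 is itself a p53 target, which closes a negative feedback loop. In the embryonic cortex, where progenitors divide fast, p53 activation is known to lead to cell cycle exit and cell death.

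None of the 9 mRNAs was higher in the Exosc10 pull-down at an adjusted p under 0.05, against 7.92% of all 16716 tested genes. A pair of target mRNAs, Ccng1 and Trp53inp1, were lower, which is 2 of 9 members, against 5.82% of all tested genes. In either direction 13.7% of all tested genes were called. Ccng1 was 1.55-fold and Trp53inp1 1.71-fold lower in the Exosc10 than in the IgG libraries, each just past the threshold in this fit, which has no block on the library number. Trp53, Mdm4, Cdkn1a, Mdm2 and Gadd45a had negative, and Sesn2 and Phlda3 positive, log2 fold changes that did not pass it. At an unadjusted p under 0.05 the members numbered 5, of which only Sesn2 was higher, against 30.6% of all tested genes. DESeq2 called 0 members higher, against 11.2% of all tested genes, and the same 2 lower, against 9.11%. With limma-voom and sample weights 0 members were called higher, against 20.1% of all tested genes, and 5 lower, namely Trp53, Mdm4, Cdkn1a, Ccng1 and Trp53inp1, against 18%. With a block on the library number, edgeR called Ccng1 (adjusted p = 0.0148) and Trp53inp1 (adjusted p = 0.00173) lower and no other member. That fit called 26.9% of all tested genes in either direction, and the labels do not state such a pairing. In deviations from the group means, each of the 8 libraries was most like the other group's library of its number. The median log2 fold change was -0.36 over the 9 members and -0.03 over all tested genes. The test was edgeR's quasi-likelihood test on counts scaled by TMM, the trimmed mean of M-values, fitted to all tested genes. P-values were adjusted over all of them by the Benjamini-Hochberg method, and fold changes are Exosc10 over IgG.

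The Exosc10 libraries held 21731971 to 34506709 counts in total and the IgG libraries 20967743 to 30199449, and the library numbered 1 was the shallowest of each group. All 9 members passed the filter on low counts, and the lowest single count of any member was 136 reads, for Phlda3. The 2 libraries numbered 1 differed from the rest of their groups for several members, so results are also given without them. Scaling sets the balance of calls over all genes: 57.6% of the called genes were higher under TMM, and 42.8% under upper-quartile scaling. Cell type markers could not be checked, because the tables used here pair no Ensembl ID with a symbol. Lysates hold many cells, and a difference here is one of the RNA recovered in the pull-downs. Which cells held an mRNA, and how much of it, cannot be told from these values.

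**Figure D1:**
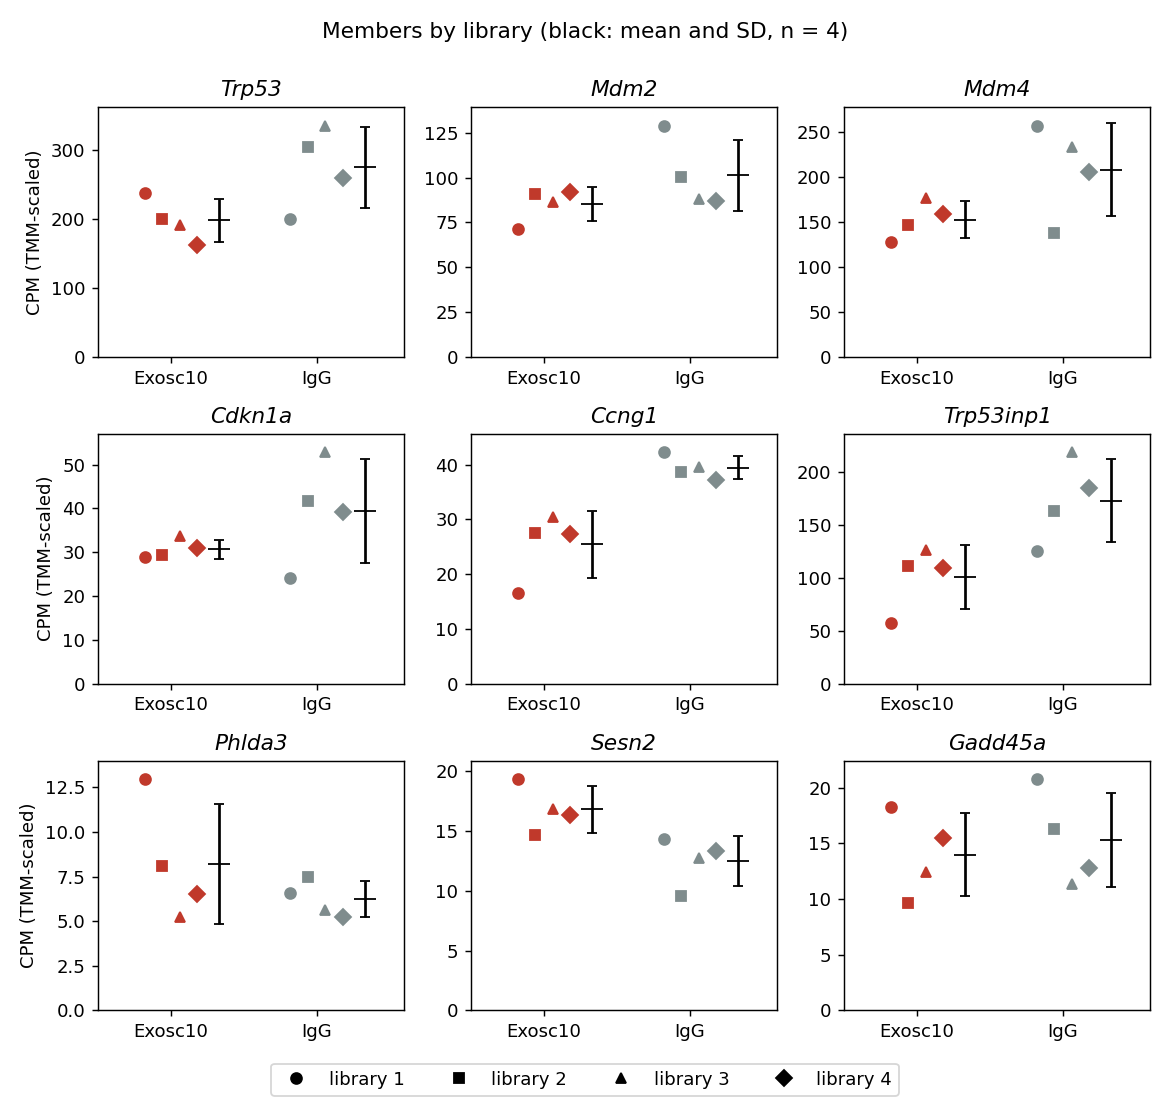
Each panel shows the TMM-scaled CPM of 1 member in the 4 Exosc10 libraries (left, red) and the 4 IgG libraries (right, grey), with marker shapes for the library number and the mean and SD in black. For Ccng1 all Exosc10 values lie below all IgG values, for Sesn2 all lie above, and for the other 7 members the groups overlap.

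Trp53 (ENSMUSG00000059552, chr11:69580348-69591873, mm10/GRCm38) encodes p53 itself. Its values, as counts scaled to a common library total (CPM), were 238, 199.6, 191 and 162 in Exosc10 libraries 1 to 4, against 200.3, 304, 335 and 259 in IgG libraries 1 to 4. Library 1 was the highest of the Exosc10 group and the lowest of the IgG group, and the groups overlapped only through these libraries. Exosc10 libraries averaged 198 ± 31.2 CPM and IgG libraries 275 ± 58.5 CPM (SD, n = 4 each). This is a log2 fold change of -0.48 ± 0.20 (SE) whose 95% confidence interval ran from -0.90 to -0.05, with an edgeR adjusted p of 0.122. It did not pass the threshold, although its unadjusted p was 0.0307. Between the remaining 3 libraries of each group the Exosc10 mean was 184 ± 19.7 CPM and the IgG mean 299.5 ± 37.9 CPM (SD, n = 3 each). The fold change there was -0.70 ± 0.14 on the log2 scale (SE, edgeR adjusted p = 0.00171), so the edgeR call for Trp53 depends on the libraries numbered 1. Without IgG library 1 alone it was -0.59 (edgeR adjusted p = 0.0274), and without Exosc10 library 1 alone it was -0.57 (edgeR adjusted p = 0.0631). Those fits called 23.7% and 16.1% of all tested genes in either direction, against 13.7% with all libraries.

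Mdm2 (ENSMUSG00000020184, chr10:117688875-117710758), the ubiquitin ligase, stood at 71.6, 90.8, 86.5 and 92.0 CPM in Exosc10 libraries 1 to 4, against 129, 101, 88.2 and 87.0 CPM in the IgG libraries. The groups overlapped, and the libraries numbered 1 held both the lowest Exosc10 and the highest IgG value. The difference was -0.25 ± 0.18 on the log2 scale (SE, 95% interval -0.63 to 0.13) and did not pass (edgeR adjusted p = 0.370). In linear terms the interval ran from 0.646-fold to 1.10-fold. Without both libraries numbered 1 the Exosc10 mean was 89.7 ± 2.88 CPM and the IgG mean 91.9 ± 7.49 CPM (SD, n = 3 each), which differed by -0.04 ± 0.12 on the log2 scale (SE, edgeR adjusted p = 0.856).

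Mdm4 (ENSMUSG00000054387, chr1:132986105-133030587), the second inhibitor of p53, stood at 127, 146, 176 and 159 CPM in the Exosc10 libraries, against 257, 137, 233 and 205 CPM in the IgG libraries. IgG library 2 lay within the Exosc10 range, and the other 3 IgG libraries lay above it. The log2 fold change of -0.45 ± 0.21 (SE, interval -0.89 to -0.01) did not pass (edgeR adjusted p = 0.156). Without both libraries numbered 1 it was -0.26 ± 0.17 (SE, edgeR adjusted p = 0.281). In the RefSeq annotation 2 predicted genes, Gm29257 and Gm41953, overlap the Mdm4 locus, and the strand setting of the counts was not given in the sources used here, so the Mdm4 count may include or lose reads from where they overlap.

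Ccng1 (ENSMUSG00000020326, chr11:40748552-40755309) encodes cyclin G1, a p53 target that acts on Mdm2 through a protein phosphatase. It stood at 16.6, 27.6, 30.4 and 27.4 CPM in the Exosc10 libraries, against 42.3, 38.6, 39.6 and 37.2 CPM in the IgG libraries. Every Exosc10 value lay below every IgG value, and Exosc10 library 1 lay far below the other 3 of its group. The Exosc10 libraries averaged 25.5 ± 6.08 CPM and the IgG libraries 39.4 ± 2.12 CPM (SD, n = 4 each). Ccng1 was called lower (edgeR adjusted p = 0.0452), at a log2 fold change of -0.63 with an SE of 0.19 and a 95% interval of -1.04 to -0.21. Without Exosc10 library 1 it was -0.46 ± 0.15 (SE, edgeR adjusted p = 0.0498). Leaving out any one of the other 7 libraries ended the call, with fewer libraries to test in each case. The edgeR adjusted p-values ran from 0.0507 without IgG library 1 to 0.102 without IgG library 3. Of all tested genes, 23.7% were called without IgG library 1 and 5.2% to 8.08% without another of these 7, against 13.7% with all libraries. Without both libraries numbered 1 the log2 fold change was -0.44 ± 0.13 (SE, edgeR adjusted p = 0.0213).

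Trp53inp1 (ENSMUSG00000028211, chr4:11156441-11174379) encodes a nuclear stress protein that promotes p53 activity and takes part in autophagy. Its values were 57.5, 111, 127 and 109 CPM in the Exosc10 libraries, against 125, 163, 219 and 185 CPM in the IgG libraries. Library 1 was the lowest of each group, and the groups overlapped only because Exosc10 library 3 lay slightly above IgG library 1. The Exosc10 mean was 101 ± 30.1 CPM and the IgG mean 173 ± 39.2 CPM (SD, n = 4 each). Its log2 fold change of -0.77 ± 0.24 (SE, interval -1.29 to -0.25) was the lowest of the 9 members and lay at the 8.80th percentile of all tested genes (edgeR adjusted p = 0.0486). The call was lost without any one library except IgG library 1, at edgeR adjusted p-values of 0.0541 without Exosc10 library 3 to 0.148 without IgG library 3. The fits that lost it called 5.2% to 16.1% of all tested genes in either direction, against 13.7% with all libraries. Without both libraries numbered 1 the log2 fold change was -0.71 ± 0.14 (SE, edgeR adjusted p = 0.00162).

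Cdkn1a (ENSMUSG00000023067, chr17:29090979-29100722) encodes p21, the inhibitor of cyclin-dependent kinases through which p53 halts the cell cycle. It stood at 28.9, 29.3, 33.7 and 30.9 CPM in the Exosc10 libraries, against 24.1, 41.7, 52.8 and 39.2 CPM in the IgG libraries. The Exosc10 values lay close together, with a coefficient of variation of 7.01%, whereas that of the IgG values was 30.0%. IgG library 1 lay below all Exosc10 libraries and the other 3 IgG libraries lay above them. With all libraries Cdkn1a was not called (edgeR adjusted p = 0.267), at a log2 fold change of -0.36 with an SE of 0.21 and a 95% interval of -0.82 to 0.09. Without IgG library 1 it was -0.53 ± 0.16 (SE, edgeR adjusted p = 0.0325), and without both libraries numbered 1 it was -0.51 ± 0.15 (SE, edgeR adjusted p = 0.0166). Among the edgeR fits that leave out 1 library, the one without IgG library 1 was the only one to call Cdkn1a, whereas limma-voom with sample weights called it with all 8 libraries (adjusted p = 0.0268). Those 2 fits called 23.7% and 38.1% of all tested genes in either direction, against 13.7% in the main fit.

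Sesn2 (ENSMUSG00000028893, chr4:132492804-132510456) encodes sestrin 2, a stress-induced inhibitor of mTOR signalling. Its values were 19.4, 14.7, 16.9 and 16.4 CPM in the Exosc10 libraries, against 14.4, 9.54, 12.7 and 13.4 CPM in the IgG libraries. All Exosc10 values lay above all IgG values, by a narrow margin between Exosc10 library 2 and IgG library 1. Sesn2 and Ccng1, in opposite directions, were the 2 of 9 members whose groups did not overlap, against 19.1% of all tested genes. The log2 fold change of Sesn2 was 0.43 ± 0.19 (SE, interval 0.02 to 0.83), the highest of the members, and it did not pass the threshold (edgeR adjusted p = 0.144). Over 18 alternative settings it was called in 0. Adjusted p-values ran from 0.0511, in edgeR with a block on the library number, to 0.288, in edgeR without IgG library 2.

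Phlda3 (ENSMUSG00000041801, chr1:135766085-135769134) encodes a small membrane-binding protein that restrains the kinase Akt. It stood at 13.0, 8.11, 5.24 and 6.55 CPM in the Exosc10 libraries, against 6.59, 7.49, 5.62 and 5.26 CPM in the IgG libraries. Exosc10 library 1 was the highest, and the other 3 Exosc10 libraries lay among or near the IgG values. Its log2 fold change of 0.39 ± 0.28 (SE, 95% interval -0.20 to 0.98) did not pass (edgeR adjusted p = 0.357), and without both libraries numbered 1 it was 0.11 ± 0.24 (SE, edgeR adjusted p = 0.754). Phlda3 had the widest interval of the members, which in linear terms ran from 0.872-fold to 1.98-fold.

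Gadd45a (ENSMUSG00000036390, chr6:67035096-67037407) encodes a small stress protein of growth arrest and DNA repair. Its values were 18.3, 9.67, 12.4 and 15.5 CPM in the Exosc10 libraries, against 20.8, 16.3, 11.3 and 12.8 CPM in the IgG libraries. The groups lay over the same range, and the sign of the difference was not stable: it was -0.13 ± 0.24 on the log2 scale with all libraries (SE, 95% interval -0.65 to 0.39, edgeR adjusted p = 0.758), 0.06 without IgG library 1 and 0.02 without Exosc10 library 2. A noncoding RNA gene, E230016M11Rik, overlaps the Gadd45a locus in the RefSeq annotation, and the same limit holds there.

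**Figure D2:**
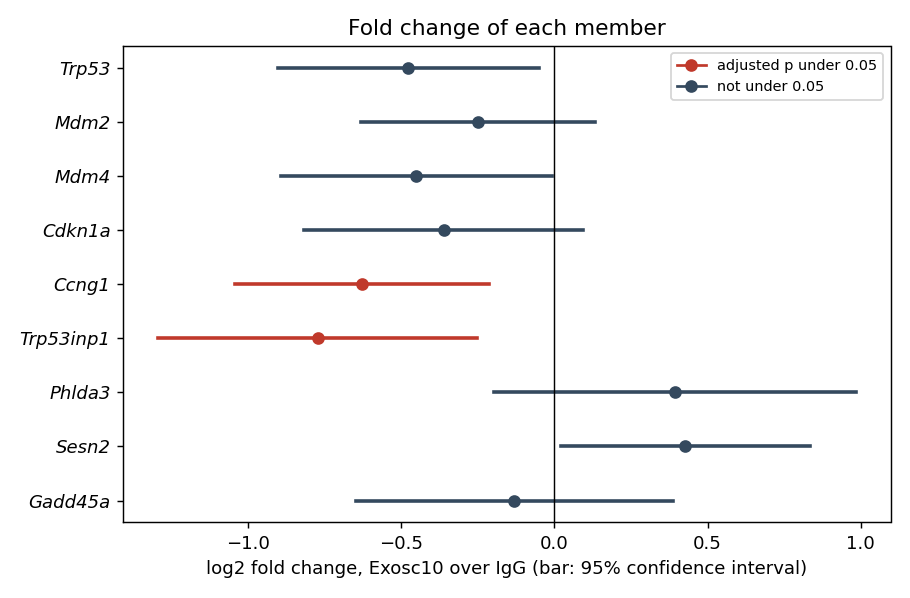
Points are log2 fold changes of Exosc10 over IgG from edgeR with 95% confidence intervals, 1 row per member (n = 4 libraries per group). Ccng1 and Trp53inp1 (red) passed an adjusted p of 0.05, and among the others the intervals of Trp53, Mdm4 and Sesn2 exclude 0 before adjustment.

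The intervals give the sizes of difference that the data leave room for. Among the 7 members without a call, the lowest bound was 0.535-fold, for Trp53, and the highest was 1.98-fold, for Phlda3. A 2-fold higher share in the Exosc10 pull-down thus lay outside the 95% interval of each of the 9 members in the main fit. For Phlda3 it lay only just outside, and its log2 fold change rose to 0.56 ± 0.27 (SE) without Exosc10 library 3. A missing call thus does not show that an mRNA was unbound or that its share was equal, since smaller differences lie within these intervals.

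Members were also set side by side by library number, which both groups carry in their titles. The labels do not say what a shared number stands for. Only Ccng1, Trp53inp1 and Sesn2 differed in the same direction in all 4 numbers. The share of all tested genes that did so was not worked out, so this describes the members only. The difference in log2 CPM of Ccng1 was -1.35, -0.49, -0.38 and -0.44 in numbers 1 to 4, and that of Trp53inp1 was -1.12, -0.55, -0.79 and -0.76. Sesn2 differed by 0.43, 0.62, 0.41 and 0.29. For Trp53 number 1 was the exception, at 0.25, against -0.61, -0.81 and -0.68 in numbers 2 to 4. Cdkn1a had the same exception, at 0.26 in number 1 and -0.51, -0.65 and -0.34 in the others. For Mdm2 the difference was -0.85 in number 1 and between -0.15 and 0.08 in the others, so that its negative mean came mostly from number 1.

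**Figure D3:**
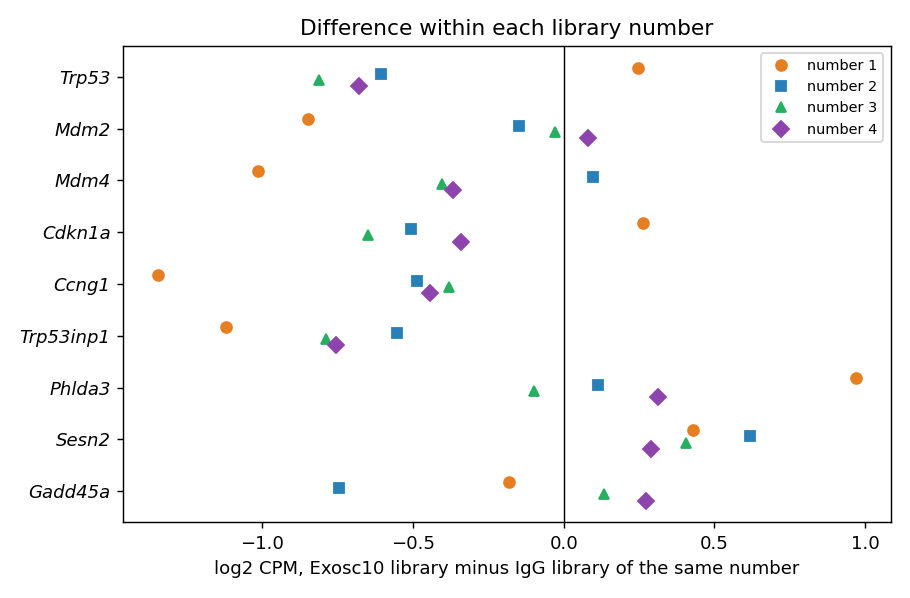
Each point is the log2 CPM of an Exosc10 library minus that of the IgG library with the same number, with 4 points per member. Number 1 (orange circles) is the lowest or the highest point of every member but Sesn2 and Gadd45a, and all 4 points lie on one side of 0 for Ccng1, Trp53inp1 and Sesn2.

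With both libraries numbered 1 left out, 4 of the 9 members were called lower, namely Trp53, Trp53inp1, Cdkn1a and Ccng1, against 15.1% of all tested genes in the same fit. In that edgeR fit 0 members were called higher, against 17.1% of all tested genes, and 1, Sesn2, had an unadjusted p under 0.05 (adjusted p = 0.0836). The list of lower members therefore gained p53 itself and p21, while Mdm2, Mdm4 and Gadd45a stayed without a call at adjusted p-values of 0.856, 0.281 and 0.744. For Trp53 and Cdkn1a the libraries left out were those whose difference had the other sign, at 0.25 and 0.26. Their calls in this fit thus depend on that choice of libraries. In CPM the remaining 3 libraries of each group did not overlap for Trp53, Cdkn1a, Ccng1, Trp53inp1 and Sesn2. They overlapped for the other members. The share of all tested genes without overlap in these libraries was not worked out, so this describes the members only. With all libraries thinned to equal depth, the log2 fold changes were -0.47 for Trp53 and -0.34 for Cdkn1a, against -0.48 and -0.36 without thinning. The part of depth or preparation in the difference between the libraries numbered 1 and the rest was not tested.

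**Figure D4:**
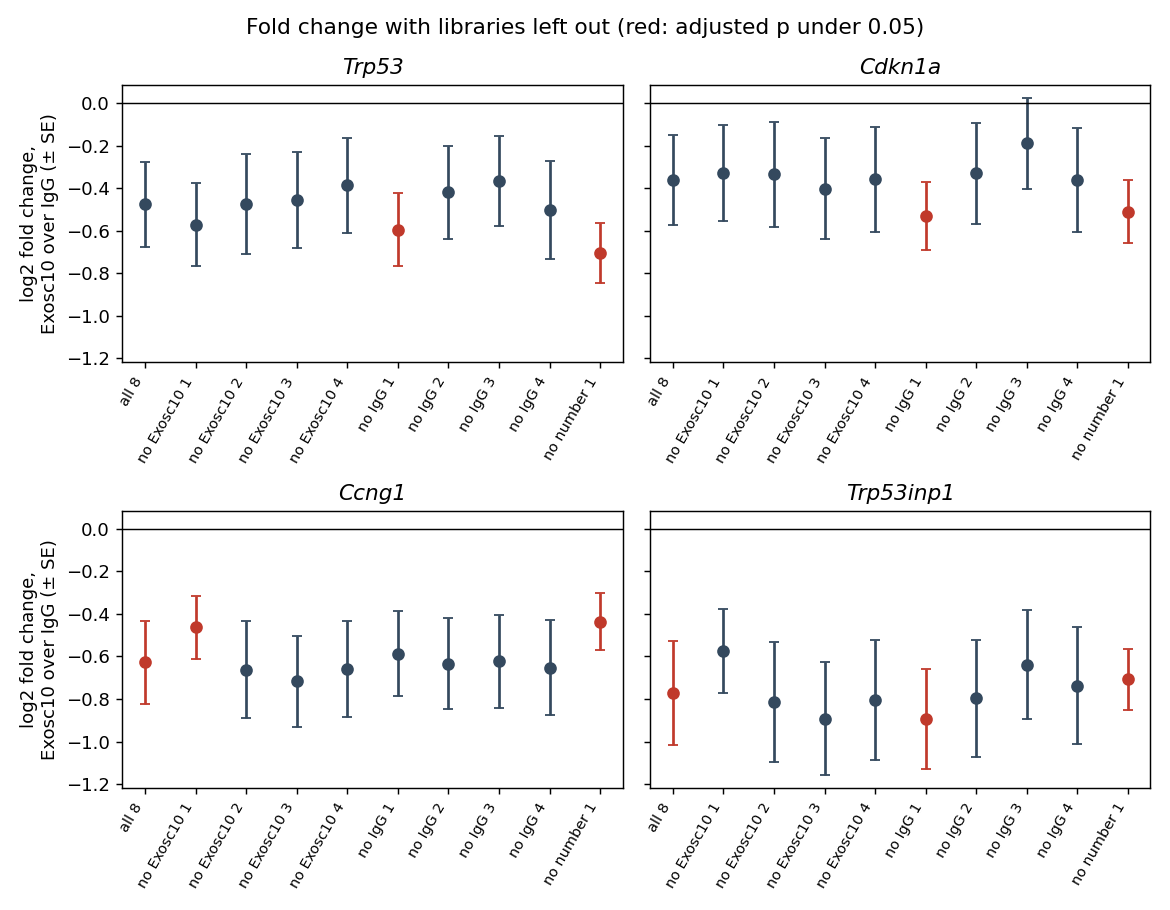
Log2 fold changes with their SE are shown for Trp53, Cdkn1a, Ccng1 and Trp53inp1 with all 8 libraries, without each library in turn and without both numbered 1, and fits with an adjusted p under 0.05 are red. All values are negative, while among these edgeR fits the calls of Trp53 and Cdkn1a appear only without IgG library 1 or both libraries numbered 1, and those of Ccng1 and Trp53inp1 are lost in most of the fits that leave out a single library.

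A ratio of 2 counts from the same library does not depend on how libraries are scaled, so each member's count was also divided by the Trp53 count of its library. The ratio depends on transcript lengths and was compared only between libraries. With all libraries the groups overlapped for 7 of the 8 ratios, and they did not for Sesn2, against 15.7% of all other tested genes whose ratio to Trp53 did not overlap (with 0.5 added to each count over all genes). Sesn2 had log2 ratios to Trp53 of -3.77 to -3.31 in the Exosc10 libraries and -5.00 to -3.80 in the IgG libraries. Its mean log2 ratio was -3.55 ± 0.19 with Exosc10 and -4.45 ± 0.52 with IgG (SD, n = 4 each), a difference of 0.90 made up of a higher Sesn2 and a lower Trp53 share. The log2 ratio of Mdm2 to Trp53 was -1.21 ± 0.38 in the Exosc10 and -1.43 ± 0.56 in the IgG libraries (SD, n = 4 each), a difference within the spread between all libraries. The log2 ratio of Cdkn1a to Trp53 likewise differed by less than that spread, at -2.67 ± 0.29 in the Exosc10 and -2.83 ± 0.17 in the IgG libraries (SD, n = 4 each). Without both libraries numbered 1, a setting added after the values had been seen, the groups did not overlap for 3 ratios, those of Mdm2, Phlda3 and Sesn2, against 59% of all other tested genes. The Mdm2 ratio was then -1.03 ± 0.19 in the Exosc10 and -1.70 ± 0.19 in the IgG libraries (SD, n = 3 each), a difference of 0.67 in place of 0.23. In the same 3 libraries of each group the log2 fold change was -0.70 for Trp53 and -0.04 for Mdm2. The difference for Ccng1 changed sign, to 0.26 from -0.20, and that for Trp53inp1 went to 0.00054 from -0.34.

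Members were further compared by the shape of their values over the 8 libraries, as the Euclidean distance between log2 CPM profiles centred on each gene's mean. Of the 36 pairs, Trp53 and Cdkn1a were the closest, at 0.62, followed by Ccng1 with Trp53inp1, at 0.74, and Mdm2 with Mdm4, at 0.81. Trp53inp1 and Phlda3 were the farthest apart, at 2.57. These distances describe 8 libraries of 2 groups and hold the group difference as well as the spread within groups.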

How the data were processed

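The authors deposited 1 file of read counts per library, with no header and no normalization. Per the submitters' processing notes, the tools were featureCounts 1.5.0-p1, STAR 2.5.2a and bcl2fastq 2.17.1.14, and the build was mm10. Strand setting, annotation release and the handling of reads with several matches are not given in the sources used here. Symbols of the 9 members came with their selection by Ensembl ID, and the RefSeq table (GRCm38.p6, the assembly called mm10) gave their loci. It held no Ensembl ID, so the 44 further pathway genes listed by symbol and the cell type markers were not tested. Members and lists were chosen with earlier results of these data known.

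Sample titles gave the groups and numbers. The main test was edgeR 4.0.16 under R 4.3.3 (filterByExpr, minimum count 10 and total 15, which kept 16716 genes; TMM; quasi-likelihood F-test; no covariate; threshold 0.05). An SE is the log2 fold change divided by the square root of F. CPM values are TMM-scaled, and log2 CPM used a prior count of 2. Alternatives were DESeq2 1.42.0, limma 3.58.1 (voom with sample weights), other scalings and filters, leaving out libraries, equal depth by thinning, and a block on the replicate number. All 9 members are named, with full statistics for called members, Trp53, Mdm2 and Cdkn1a at least. Since separate cultures are not stated, p-values cover only the spread among these libraries, possibly technical. No pair within a group agreed within sampling noise (lowest chi-square per gene 17.8).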

Additional observations from a re-analysis of the deposited data

Results flagged for a closer look

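In 20 groups of 4 libraries, covering the 9 members and the library totals, 1 group held a library whose gap to the nearest other, divided by the range of the group, passed Dixon's critical value of 0.829. It was Ccng1 in the Exosc10 pull-downs, where library 1, at 16.6 CPM, lay apart from the other 3, at 27.4 to 30.4 CPM. The ratio was 0.829063, barely past the critical value, and chance alone passes about 1 in 20 such groups. The log2 fold change of Ccng1 was -0.46 without that library (edgeR adjusted p = 0.0498), against -0.63 with it.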

How the results depend on the processing

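The 9 members kept the sign of their log2 fold change in all 18 alternatives, except Gadd45a, which turned positive without Exosc10 library 2 and without IgG library 1. The members called, Ccng1 and Trp53inp1, were the same with DESeq2, median ratios, library totals, the upper quartile, no filter, a mean of at least 5 CPM, thinning and the replicate block. With limma-voom 5 members were called, all lower, with Trp53, Mdm4 and Cdkn1a added (adjusted p = 0.00422, 0.0375 and 0.0268), beside 6374 genes in all (3363 higher, 3011 lower), and the cause was not tested. Without both libraries numbered 1 the members called were 4, all lower, beside 5463 genes (2908 higher, 2555 lower). Leaving out 1 library, which also leaves fewer values to test, gave 0 to 3 members called, all lower, and 880 to 4046 genes, 588 to 2218 higher and 261 to 1828 lower, with each high end without IgG library 1. Those genes were 5.2% to 23.7% of the genes tested in each fit. DESeq2 called 1522 genes lower, against 973. Deviations from the group means correlated across genes at 0.34 between the 2 libraries numbered 1, at 0.095 for number 2, 0.34 for number 3 and 0.22 for number 4, one of them under the 0.1 required of every pair. The reported test has no block, since the labels state no pairing and not every pair passed 0.1. Each of the 8 libraries was still most like the one sharing its number, which hints at a pairing. The fits that leave out libraries have no block either, so calls lost there were not tested under a pairing. In the fit with the replicate block, 4495 genes or 26.9% of those tested were called (2489 higher, 2006 lower), against 13.7% without it, and the log2 fold changes of Ccng1 and Trp53inp1 were -0.66 and -0.80 (adjusted p = 0.0148 and 0.00173). The tests of the pathway list by symbol were not run.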
